A study of Homo sapiens with 12 samples.

Results

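Double-stranded RNA sensors are proteins that bind double-stranded RNA or its close relatives and start an antiviral response, and 8 genes of this kind were followed across 4 lines of a pancreatic carcinoma cell line. The members were taken by symbol from a table of 63086 genes, and all 8 were found: IFIH1, DDX58, DHX58, MAVS, TLR3, EIF2AK2, ADAR and ZBP1. DDX58 is the older symbol of RIGI and is kept here as the table writes it. Of the 8, 7 reached a mean of 10 normalised counts across the 12 libraries and were tested. ZBP1 did not reach that minimum.

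RNA of MIA PaCa-2, a cell line from a human pancreatic carcinoma, was sequenced in 12 libraries, with 3 biological replicates of each line. WT is the unmodified line, CRISPR Control carries a silent point mutation with the protein unaltered, and TIMP1 KO 1 and TIMP1 KO 2 are knockout clones made with guide RNAs against exon 4 of TIMP1, which encodes a secreted inhibitor of metalloproteinases. All lines were grown in the same serum-containing medium, and the labels list no treatment. Each KO line is 1 clone, and the sources used here do not say whether the CRISPR Control line is 1 clone, so the effect of the targeted gene and the history of a clone cannot be told apart within a line. KO 1 and KO 2 together are called TIMP1-deficient, and WT and CRISPR Control TIMP1-competent. Values are gene read counts after scaling by a library's size factor, called normalised counts. A library held between 26908701 and 36093563 reads in genes.

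The cytosolic sensors MDA5 (gene IFIH1) and RIG-I (DDX58) are helicases that, once bound to double-stranded RNA, engage the mitochondrial adaptor MAVS and thereby switch on interferon genes, while LGP2 (DHX58) is a relative that lacks the signalling domains and tunes both. TLR3 reads double-stranded RNA in endosomes, PKR (EIF2AK2) is a kinase that halts translation by phosphorylating eIF2alpha, and ZBP1 binds Z-form nucleic acid and can trigger necroptosis. ADAR1 (ADAR) edits adenosine to inosine in double-stranded RNA and so keeps a cell's own RNA from being sensed. Several of these genes are themselves interferon-stimulated, and their promoters can carry an interferon-stimulated response element (ISRE), the site bound by interferon-activated factors.

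Promoter windows of RefSeq (GRCh38.p14) were read for 6 of the 8 members, with none for DHX58 and ZBP1. Each window ran from 250 bases before to 50 bases after an annotated start. An ISRE was searched as the letters GAAANNGAAA on both strands, and a gamma-activated site (GAS), which reads the same on both strands, as TTCNNNGAA. The ISRE letters were present in 3.57% of 35116 windows and the GAS letters in 7.66%. They occurred in the windows of IFIH1, TLR3 and EIF2AK2, and not in those of DDX58, MAVS or, in its 3 windows, ADAR. IFIH1 held 3 ISRE matches, starting 159, 153 and 21 bases before the start, the first pair of which overlap. TLR3 held 1 match from 4 bases before the start, and EIF2AK2 1 from 6 bases before it. TLR3 also held 2 GAS matches. A match is a description of letters and was not tested for binding. The search took only the exact spacing, so near matches, such as gaaacgaaa in the DDX58 window, were not counted. The windows of 3 members with a match and, for contrast, of DDX58 and MAVS are printed 5′ to 3′ on the gene's strand from 250 bases before to 30 bases after the start, with ISRE letters in capitals. They are IFIH1 (minus strand, chr2:162318655-162318934), TLR3 (plus, chr4:186068906-186069185), EIF2AK2 (minus, chr2:37156951-37157230), DDX58 (minus, chr9:32526167-32526446) and MAVS (plus, chr20:3846584-3846863).
IFIH1: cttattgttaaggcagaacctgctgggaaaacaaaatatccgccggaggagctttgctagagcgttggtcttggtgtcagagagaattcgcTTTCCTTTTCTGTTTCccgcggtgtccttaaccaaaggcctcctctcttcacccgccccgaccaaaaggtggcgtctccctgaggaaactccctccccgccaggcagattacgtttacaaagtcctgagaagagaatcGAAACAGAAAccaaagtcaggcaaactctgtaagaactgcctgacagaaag
TLR3: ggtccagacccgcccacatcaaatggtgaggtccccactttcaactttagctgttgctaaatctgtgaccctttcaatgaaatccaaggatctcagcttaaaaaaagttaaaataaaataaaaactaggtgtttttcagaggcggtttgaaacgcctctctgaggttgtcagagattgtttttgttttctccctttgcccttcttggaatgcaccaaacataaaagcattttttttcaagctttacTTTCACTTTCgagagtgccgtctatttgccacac
EIF2AK2: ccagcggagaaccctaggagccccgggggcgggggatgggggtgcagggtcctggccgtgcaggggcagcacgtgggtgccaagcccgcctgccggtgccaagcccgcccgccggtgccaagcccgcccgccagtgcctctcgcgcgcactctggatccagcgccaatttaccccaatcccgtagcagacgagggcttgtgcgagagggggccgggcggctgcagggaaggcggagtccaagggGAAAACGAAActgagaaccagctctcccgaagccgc
DDX58: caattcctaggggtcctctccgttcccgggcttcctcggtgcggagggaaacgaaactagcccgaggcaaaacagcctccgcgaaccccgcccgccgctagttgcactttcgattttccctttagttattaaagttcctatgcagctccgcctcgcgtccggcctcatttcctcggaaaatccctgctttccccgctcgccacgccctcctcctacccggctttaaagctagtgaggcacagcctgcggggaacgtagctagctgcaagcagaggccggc
MAVS: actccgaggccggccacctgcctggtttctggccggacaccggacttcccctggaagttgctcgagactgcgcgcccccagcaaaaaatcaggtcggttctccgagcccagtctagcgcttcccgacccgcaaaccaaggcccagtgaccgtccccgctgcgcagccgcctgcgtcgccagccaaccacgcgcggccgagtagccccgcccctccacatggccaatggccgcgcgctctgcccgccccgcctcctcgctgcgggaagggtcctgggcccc

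The targeted gene and the identity of the cells were checked first. TIMP1 had a normalised count of 3553 ± 274 in WT, 2690 ± 357 for CRISPR Control, 1600 ± 32.8 for KO 1 and 1161 ± 28.8 for KO 2 (means with SDs of 3 libraries), so transcript remained in both KO lines. Of 5 genes of carcinoma cells and their cytoskeleton, KRT8, KRT18, EPCAM and VIM had normalised counts of at least 1199 in every library. KRT8 and KRT18, epithelial keratins, were lowest in CRISPR Control, with means of 39963 and 16912 beside 129995 and 54161 in WT. The fifth gene, the epithelial cadherin CDH1, had means of 1189 in WT and 1424 in CRISPR Control and of 128 in KO 1 and 84.9 in KO 2, so it moved with the deficient lines. The part of this difference in the sensor results was not tested. Of 8 leukocyte markers, the B cell gene MS4A1 had 0 reads in all 12 libraries, CD3E reached at most 2 and PTPRC, the pan-leukocyte CD45 gene, at most 9. The summed level of the 8 markers moved with the sensors, from 41.8 to 56.2 in WT and 40.7 to 49.8 in CRISPR Control to 82.2 to 92.9 in KO 1 and 171 to 187 in KO 2. Most of it was CD14, a coreceptor of Toll-like receptors, and the other 7 markers together summed to between 4.40 and 22.4 in any library. In bulk RNA, more cells with a transcript and more transcript per cell cannot be told apart.

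IFIH1 and DHX58, with TLR3, showed the widest differences, and each was highest in KO 2. Against WT, limma on log2(normalised count + 1) placed 5 members higher in KO 1 and none lower at an adjusted p under 0.05 (Benjamini-Hochberg over 15987 genes), where 18.0% of all genes tested were higher and 17.5% lower. The median log2 fold change of the 7 members was 0.46, beside 0.00 over all genes. In KO 2 all 7 tested members were higher than in WT, beside 27.1% of all genes higher and 27.9% lower, with a median of 1.81 for the members and -0.0084 over all genes. TLR3 reached the minimum count through KO 2, so its part in the KO 2 count and median is a description. The members were chosen with earlier results of these data known, so the counts describe them and carry no test of the set. In CRISPR Control 2 members were higher and 1 lower than in WT, with 27.2% of all genes higher and 26.3% lower, and the members' median was 0.0023.

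**Figure D1:**
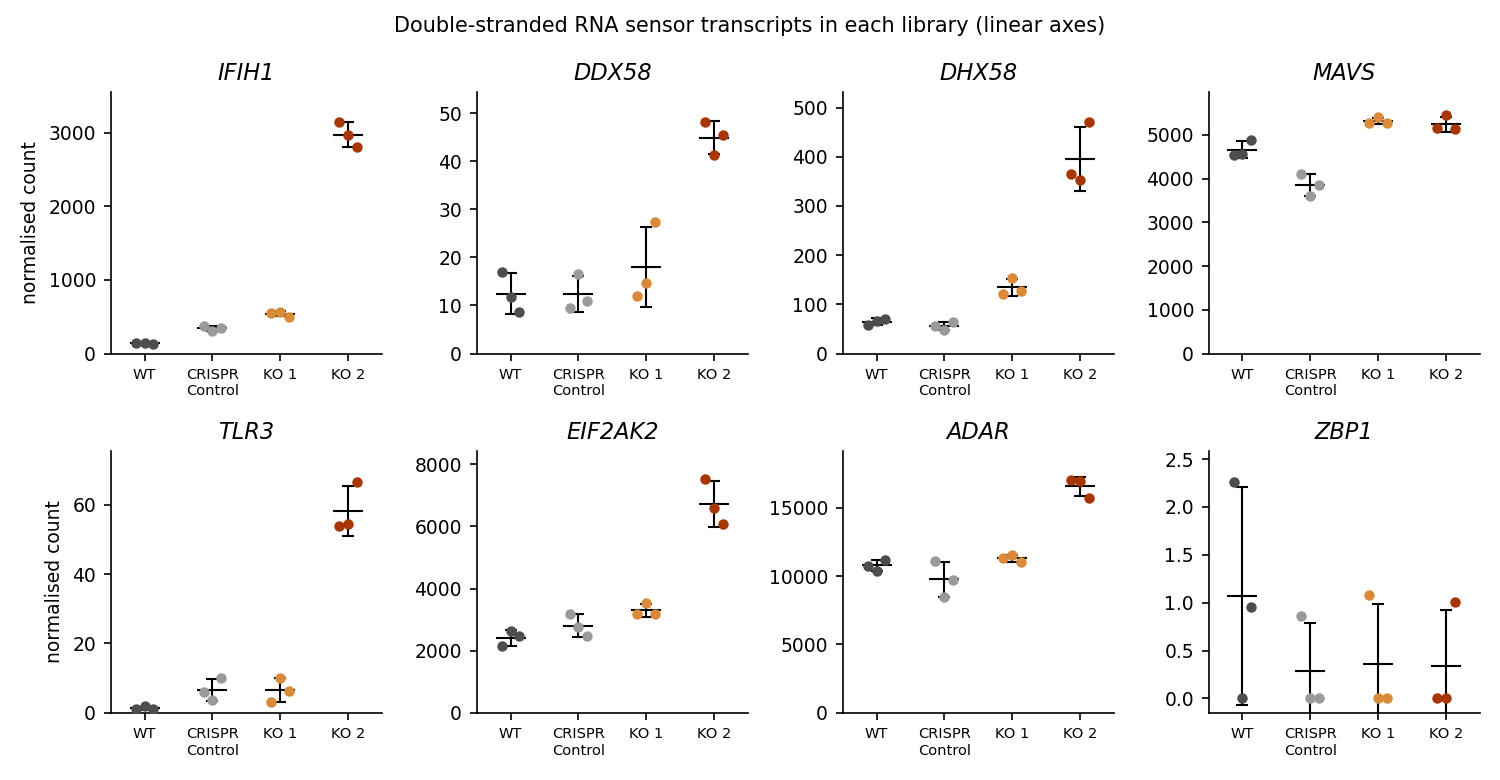
Normalised count of each sensor (vertical axes, linear, scaled separately) in the 3 libraries of each line (points), with the mean and SD (bars). The KO 2 libraries are the highest for every gene except MAVS, where KO 1 and KO 2 overlap, and ZBP1, which had at most 2 reads in any library. The share of all genes with KO 2 highest is not given here.

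IFIH1 (ENSG00000115267.10, chromosome 2 from 162267074 to 162318684, minus strand, GRCh38) encodes MDA5, the sensor of long double-stranded RNA. Its normalised counts were 141, 147 and 131 in WT, 377, 302 and 346 for CRISPR Control, 556, 565 and 498 for KO 1, and 3142, 2974 and 2807 for KO 2. No pair of lines overlapped, and the order was WT, CRISPR Control, KO 1 and KO 2, with each neighbouring pair differing. The means were 140 ± 8.01, 342 ± 37.7, 540 ± 36.3 and 2974 ± 168 (SD, n = 3 per line), which put KO 1 at 3.85 times and KO 2 at 21.2 times the WT level. On the log2 scale KO 1 exceeded WT by 1.94 (SE 0.10, limma, adjusted p 2.54e-11), and KO 2 by 4.40 (SE 0.10, adjusted p 1.44e-16). The CRISPR Control line, with no knockout, also lay above WT by 1.28 (SE 0.10, limma, adjusted p 4.11e-09). The rise of IFIH1 was therefore seen in all 3 edited lines, and in KO 1 it exceeded that of CRISPR Control by 0.66 (SE 0.10, limma, adjusted p 1.32e-05). KO 2 exceeded KO 1 by 2.46 (SE 0.10, limma, adjusted p 1.1e-12). Ranked by log2 fold change of KO 2 against WT, IFIH1 was number 81 of 15987 genes from the top.

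DHX58 (ENSG00000108771.13, chromosome 17 from 42101404 to 42112714, minus strand) encodes LGP2, which assists MDA5 and restrains RIG-I. Its normalised counts were 57.7, 66.4 and 70.5 in WT, 55.3, 48.6 and 63.7 for CRISPR Control, 121, 154 and 128 for KO 1, and 364, 353 and 471 for KO 2. WT and CRISPR Control overlapped, and both KO lines lay above them without overlap. Unlike IFIH1, DHX58 had a log2 fold change of -0.22 (SE 0.16) in CRISPR Control against WT, which missed the threshold (limma, adjusted p 0.285). Against WT it rose by 1.04 (SE 0.16, limma, adjusted p 6.64e-05) in KO 1, and by 2.59 (SE 0.16, adjusted p 2.08e-10) in the other knockout clone. Between the KO lines the difference was 1.55 (SE 0.16, limma, adjusted p 5.32e-07), higher in KO 2.

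DDX58 (ENSG00000107201.12, chromosome 9 from 32455302 to 32526208, minus strand) encodes RIG-I, the sensor of short double-stranded RNA with a triphosphate end. Its counts were low, at 9 to 58 reads in a library. A second gene of the table, ENSG00000288684, lies on the same strand and shares 4471 of the 4628 bases of the main DDX58 transcript, or 96.6%, and 17 of its 18 exons. That gene had a mean normalised count of 1.48. Reads that fit more than 1 gene may have been left uncounted, a setting the sources used here do not state. The counts of the main DDX58 transcript would then rest on its 157 unshared bases. Over all 10345 exon bases annotated to DDX58, 43.2% are shared. The level of DDX58 per length is therefore not given, and ratios that hold it are read only for how they differ between lines. The normalised counts were 17.0, 11.8 and 8.57 in WT, 9.50, 16.6 and 11.0 for CRISPR Control, 11.9, 14.6 and 27.4 for KO 1, and 48.0, 41.2 and 45.4 for KO 2. WT, CRISPR Control and KO 1 overlapped, and KO 2 lay above all of them. The log2 fold change of KO 2 against WT was 1.81 (SE 0.35, limma, adjusted p 0.000244). For KO 1 it was 0.46 (SE 0.35, limma, adjusted p 0.337) and in CRISPR Control 0.0023 (SE 0.35, adjusted p 0.996). From the summed reads, KO 2 held 3.68 times the WT level, with an exact 95% interval from 2.56 to 5.43 that covers counting error only. KO 2 exceeded KO 1 by 1.36 (SE 0.35, limma, adjusted p 0.00484).

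MAVS (ENSG00000088888.18, chromosome 20 from 3846799 to 3876123, plus strand), the adaptor through which RIG-I and MDA5 signal, varied least. Its normalised counts were 4534, 4555 and 4885 in WT, 4106, 3593 and 3860.4 for CRISPR Control, 5279.7, 5398 and 5260.5 for KO 1, and 5156, 5444 and 5124 for KO 2. The CRISPR Control libraries were the lowest and did not overlap WT, and the KO libraries lay above both and overlapped each other. Relative to WT, the log2 fold change of CRISPR Control was -0.27 (SE 0.07, limma, adjusted p 0.00207), that of KO 1 0.19 (SE 0.07, adjusted p 0.0336) and that of KO 2 0.17 (SE 0.07, adjusted p 0.0387). The KO lines differed by -0.02 (SE 0.07, limma, adjusted p 0.843). Both differences from WT were lost by limma without a minimum count, at adjusted p 0.0779 for KO 1 and 0.0823 for KO 2. The KO 1 call was also lost without WT replicate 1 (adjusted p 0.102) or 2 (0.0973), or KO 1 replicate 1 (0.0755), 2 (0.106) or 3 (0.0741). The KO 2 call was lost in the limma fits without WT replicate 1 (adjusted p 0.108) or 2 (0.106), KO 2 replicate 1 (0.0552), 2 (0.14) or 3 (0.0526), or KO 1 replicate 1 (0.0515), 2 (0.0532) or 3 (0.0538), whose spread enters the shared estimate.

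TLR3 (ENSG00000164342.14, chromosome 4 from 186068911 to 186088073, plus strand), the endosomal sensor, was near the floor of detection in WT. Its reads were 1, 2 and 1 in WT, 7, 3 and 9 for CRISPR Control, 3, 9 and 7 for KO 1, and 65, 62 and 66 for KO 2. CRISPR Control and KO 1 overlapped and both lay above WT, and KO 2 stood apart from all others. From summed reads, the level in KO 2 was 43.8 times that in WT (exact 95% interval 16.8 to 163), in KO 1 4.89 times (1.63 to 19.8) and in CRISPR Control 4.95 times (1.64 to 20.0). These intervals cover counting error only, since PCR copies of 1 molecule are counted as separate reads. By limma, whose fold change for so few reads depends on the added 1, the difference from WT passed in KO 2 (adjusted p 7.36e-08), KO 1 (adjusted p 0.00975) and CRISPR Control (adjusted p 0.00575). The KO 1 call was lost with an added 10 (limma, adjusted p 0.0614) and without KO 1 replicate 2 (adjusted p 0.0642). KO 2 held 8.96 times the level of KO 1 (exact 95% interval 5.59 to 15.2). Because TLR3 reached the minimum count through KO 2, its tests that involve KO 2 are a description.

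EIF2AK2 (ENSG00000055332.19, chromosome 2 from 37099210 to 37157522, minus strand) encodes PKR. Its normalised counts were 2140.3, 2643 and 2459 in WT, 3186, 2749 and 2458 for CRISPR Control, 3195, 3539 and 3167 for KO 1, and 7527, 6581 and 6079 for KO 2. CRISPR Control overlapped WT and KO 1, KO 1 lay above WT without overlap, and KO 2 lay above the rest. Relative to WT, EIF2AK2 was higher by 0.45 in KO 1 (log2, SE 0.10, limma, adjusted p 0.00162) and by 1.48 in KO 2 (SE 0.10, adjusted p 5.39e-10). For CRISPR Control the difference was 0.21 (SE 0.10), which missed the threshold (limma, adjusted p 0.0873) but passed without WT replicate 2 (adjusted p 0.0455) or CRISPR Control replicate 3 (adjusted p 0.0215). KO 2 exceeded KO 1 by 1.02 (SE 0.10, limma, adjusted p 2.1e-07). Reads of GPATCH11 and of the pseudogene ARL14EPP1 on the other strand could enter this count at 35 and 167 of its 9975 bases, since the strand setting of the counting is not stated.

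ADAR (ENSG00000160710.19, chromosome 1 from 154581695 to 154628013, minus strand), the editing enzyme, was the most abundant member. Its normalised counts were 10744, 10379 and 11205 in WT, 11065, 8496 and 9723 for CRISPR Control, 11303, 11560.2 and 10997 for KO 1, and 16999.7, 16946 and 15744.5 for KO 2. WT, CRISPR Control and KO 1 overlapped, and the KO 2 libraries lay above all 9 others. KO 2 exceeded WT by 0.62 on the log2 scale (SE 0.08, limma, adjusted p 3.2e-06), whereas the differences of KO 1, 0.07 (SE 0.08, adjusted p 0.558), and CRISPR Control, -0.15 (SE 0.08, adjusted p 0.128), missed the threshold. The CRISPR Control value passed the threshold without its replicate 1, at -0.24 (limma, adjusted p 0.0078). KO 2 exceeded KO 1 by 0.55 (SE 0.08, limma, adjusted p 2.62e-05). Counts per gene do not separate the long, interferon-inducible ADAR1 form from the short, constitutive one.

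ZBP1 (ENSG00000124256.15, chromosome 20 from 57603846 to 57620576, minus strand) had 0 to 2 reads in every library, at or under the floor of 3 reads that a count of 0 allows. Its reads summed to 3 over the WT libraries and to 1 in each other line, so a difference in ZBP1 between lines was not detectable at this depth, and no fold change is given.

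**Figure D2:**
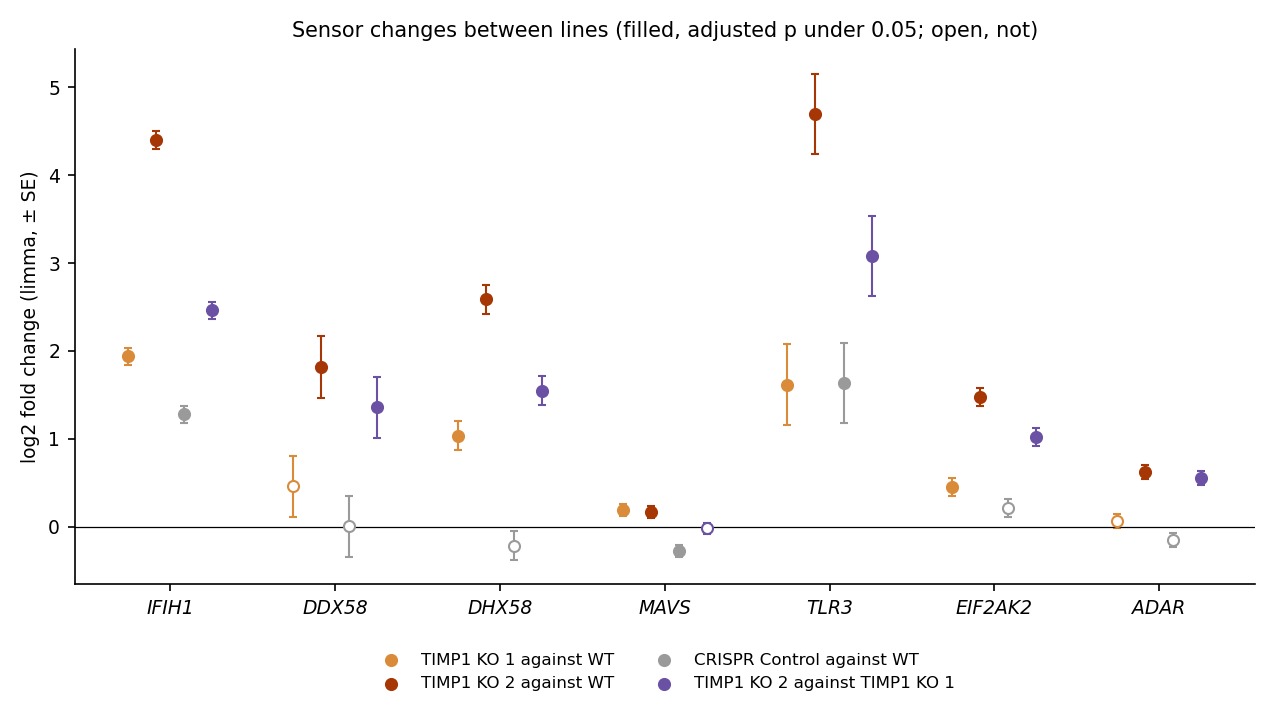
Log2 fold change by limma (points) with its standard error (bars) for the 7 tested sensors in 4 comparisons between lines, filled where the adjusted p is under 0.05. The KO 2 values lie above the KO 1 values for every sensor but MAVS, and the fitted values of TLR3 depend on the 1 added before the logarithm.

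The remaining comparisons separate the knockout clones from the edited control. Against CRISPR Control 5 members were higher in KO 1 and none lower, beside 31.7% of all genes higher and 31.3% lower, and DDX58 and TLR3 did not pass. In TLR3 the levels of KO 1 and CRISPR Control differed by -0.02 (SE 0.46, limma, adjusted p 0.98). The EIF2AK2 value, 0.24 (SE 0.10, limma, adjusted p 0.0418), and the ADAR value, 0.22 (SE 0.08, adjusted p 0.0259), came from overlapping libraries. Both were lost when only the lines compared were fitted, with limma adjusted p of 0.051 and 0.0703, and with no minimum count, at 0.077 and 0.0607. By limma the EIF2AK2 call was also lost without CRISPR Control replicate 2 (adjusted p 0.0799) or 3 (0.204), KO 1 replicate 1 (0.06), 2 (0.159) or 3 (0.054), WT replicate 3 (0.0529) or KO 2 replicate 2 (0.0535). The ADAR call was lost in the limma fits without CRISPR Control replicate 2 (adjusted p 0.15) or KO 1 replicate 1 (0.0611) or 2 (0.0814).

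In KO 2 against CRISPR Control all 7 tested members were higher, beside 33.3% of all genes higher and 34.4% lower, with log2 fold changes from 0.45 for MAVS to 3.12 for IFIH1. Between the KO lines 6 members were higher in KO 2 and none lower, beside 18.1% of all genes higher and 20.1% lower. MAVS was the exception. The mean of the deficient lines was above that of the competent lines for all 7 tested members, beside 32.9% of all genes higher and 33.0% lower. The libraries of the deficient lines lay wholly above those of the competent lines for 3 of the 7, IFIH1, DHX58 and MAVS, beside 12.3% of all genes. These comparisons share libraries with each other and are not independent. TLR3, which reached the minimum through KO 2, is counted in them only as a description.

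Per kilobase of the main annotated transcript, the order of mean levels in WT ran from ADAR (1630.2 ± 62.7 normalised counts per kb, mean ± SD of 3 libraries) through MAVS (397 ± 16.8), EIF2AK2 (242 ± 25.5), IFIH1 (39.1 ± 2.24) and DHX58 (25.0 ± 2.51) to TLR3 (0.216 ± 0.0760). The order was the same in CRISPR Control and KO 1. In KO 2 IFIH1 (831 ± 46.8 per kb) stood above EIF2AK2 (675 ± 73.7) and MAVS (447 ± 15.0), so that the adaptor, next after ADAR in WT, ranked below both. DHX58 reached 153 ± 25.1 per kb in KO 2 and TLR3 9.69 ± 1.20. Lengths are of annotated transcripts, and the transcripts that these cells use were not measured.

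**Figure D3:**
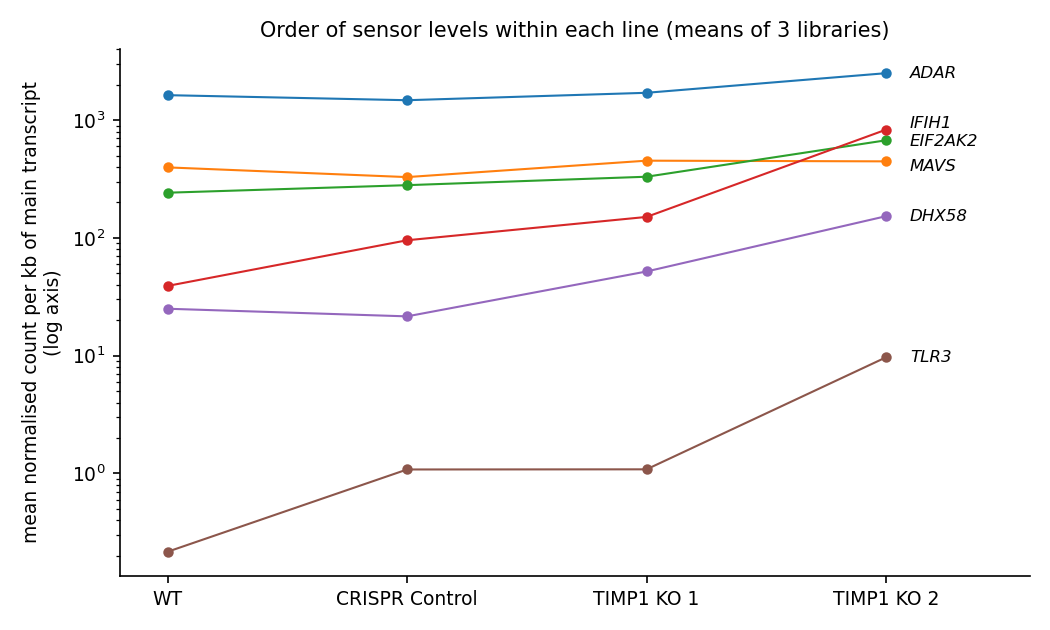
Mean normalised count per kilobase of main transcript (log axis) of 6 sensors in the 4 lines, joined by gene. IFIH1 crosses EIF2AK2 and MAVS between KO 1 and KO 2, while ADAR stays highest. DDX58 is left out because of its shared bases and ZBP1 because of its few reads.

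Percentages of one count in another within a library do not depend on its size factor and show how unequally the members moved. The log2 ratios that were tested add 1 to each normalised count, so they do depend on the size factor, most for the low counts of DDX58. IFIH1 was 1.30% ± 0.124 of the ADAR count in WT, 3.51% ± 0.0860 for CRISPR Control, 4.78% ± 0.217 for KO 1 and 18.0% ± 0.479 for KO 2 (SD of 3 libraries). No line overlapped another in this ratio. On the log2 scale the ratio was higher in the deficient lines by 2.11 (exact two-sided permutation test of 6 against 6 libraries, adjusted p 0.013 over 6 ratios), and its unadjusted p, 0.00216, is the smallest this design allows. EIF2AK2 was 22.4% ± 2.80 of ADAR in WT, 28.8% ± 3.54 for CRISPR Control, 29.2% ± 1.23 for KO 1 and 40.6% ± 3.21 for KO 2. That ratio overlapped between the groups and was higher by 0.44 in the deficient lines (exact permutation test, adjusted p 0.039). The call was lost in 9 of 12 runs that left out 1 library (adjusted p 0.0519 to 0.0779), and held without CRISPR Control replicate 2, KO 1 replicate 1 or KO 1 replicate 3.

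DHX58 was 46.5% ± 6.53 of the IFIH1 count in WT, 16.4% ± 1.90 for CRISPR Control, 24.9% ± 2.86 for KO 1 and 13.4% ± 2.92 for KO 2. WT was thus the line with the most LGP2 transcript relative to MDA5 transcript. The deficient and competent lines overlapped in this ratio, and their difference of -0.61 did not pass (exact permutation test, adjusted p 0.162). DDX58 against IFIH1 was lower in the deficient lines by a log2 difference of -1.39 (exact permutation test, adjusted p 0.0325). DHX58 against DDX58 differed by 0.78 (exact permutation test, adjusted p 0.039) and DDX58 against MAVS by 0.82 (adjusted p 0.0831), with the limit on DDX58 counts given above. The call of DDX58 against IFIH1 was lost without WT replicate 1 or 2, KO 1 replicate 2 or any KO 2 library (exact permutation tests, adjusted p 0.0519 to 0.0649). That of DHX58 against DDX58 was lost in 10 of 12 such runs (adjusted p 0.0584 to 0.0779) and held without WT replicate 3 or KO 1 replicate 3. Libraries of a line share its clone, so these p-values treat as independent what partly is not.

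**Figure D4:**
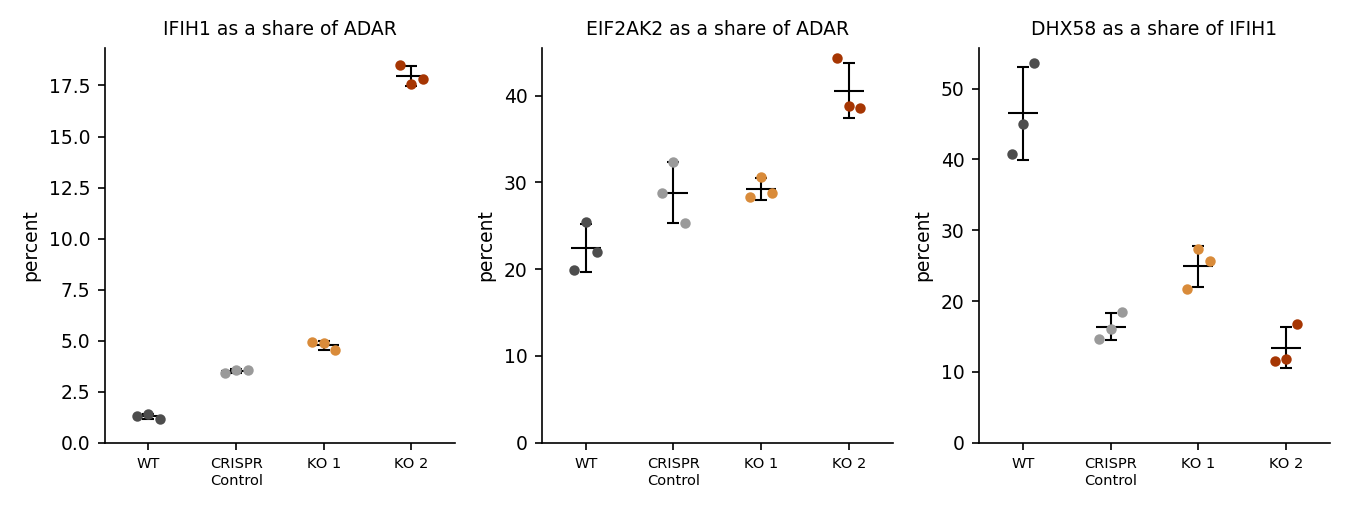
IFIH1 and EIF2AK2 as a percentage of ADAR, and DHX58 as a percentage of IFIH1, in each library (points) with the mean and SD of each line (bars), on linear axes from 0. IFIH1 rises from 1.30% of ADAR in WT to 18.0% in KO 2, while DHX58 against IFIH1 is highest in WT.

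Over the 12 libraries IFIH1 followed TLR3 and EIF2AK2 most closely among the members, with Pearson's r of log2(normalised count + 1) of 0.96 and 0.97, and DHX58 with 0.92. MAVS followed the others least, from 0.38 with TLR3 to 0.73 with DHX58. These values describe 12 libraries that share 4 lines, and carry no test. Among 11642 genes with a mean of at least 100, those most like IFIH1 were USP18, LAMP3 and UBE2L6 (r of 0.99 each), all interferon-stimulated genes. Those most like EIF2AK2 were SGMS2, SAMD9 and SUCO (0.99, 0.98 and 0.98), and those most like ADAR were ZC3HAV1, TCTA and HIPK2 (0.98, 0.97 and 0.97). For DHX58 they were ALDH1A3, OAS2 and CORO2A (0.99 each), for TLR3 IRF1, ST6GAL1 and ICAM1 (0.98, 0.97 and 0.97), for MAVS MAN2B2, CHD6 and DNM1 (0.99, 0.98 and 0.98) and for DDX58 PIGH, TP53I3 and HPSE (0.97, 0.96 and 0.94). Of these 21 genes, 3 were also among the nearest 3 by Spearman's rho over the libraries and 2 by Pearson's r over the 4 line means, so the names depend on the measure.

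The nearest tested protein-coding genes on the chromosome, which were not chosen for their values, moved with some members and not with others. GCA, a calcium-binding protein gene that starts 0.156 kb from IFIH1, had mean normalised counts of 185 in WT, 540 for CRISPR Control, 431 for KO 1 and 572 for KO 2. Like IFIH1, GCA was higher than WT in every edited line by limma, with log2 fold changes of 1.54 (adjusted p 1.65e-07) in CRISPR Control, 1.24 (adjusted p 5.57e-06) in KO 1 and 1.64 (adjusted p 6.33e-08) in KO 2. The log2 difference of GCA between KO 2 and CRISPR Control was 0.10 (limma, adjusted p 0.591). DPP4, on the other side of IFIH1 at 193 kb, had means of 1.06, 37.8, 0.294 and 8.19 in the same order of lines. KAT2A, 0.397 kb from DHX58, fell by 0.76 (limma, adjusted p 3.32e-07) in KO 2, where DHX58 rose. ZNF385C, on the other side of DHX58, did not pass in KO 2 (log2 0.29, limma, adjusted p 0.455). Beside DDX58, ACO1 at 0.533 kb fell by 0.86 in KO 2 against WT (limma, adjusted p 1.96e-09), while TOPORS at 14.3 kb rose by 0.32 (adjusted p 0.00415). CYP4V2, 103 kb from TLR3, rose by 2.92 in KO 2 (limma, adjusted p 6.24e-06) and fell by 2.17 in CRISPR Control (adjusted p 0.000183), where TLR3 was above WT. SORBS2, at 112 kb on the other side of TLR3, fell by 2.21 in CRISPR Control (limma, adjusted p 6.78e-13) and did not pass in KO 2 (log2 -0.13, adjusted p 0.276). Beside ZBP1, PMEPA1 fell by 0.25 in KO 2 (limma, adjusted p 0.00232) and HMGB1P1 did not pass (log2 0.67, adjusted p 0.131). AP5S1 and PANK2 beside MAVS, HEATR5B and CEBPZOS beside EIF2AK2 and CHRNB2 and PMVK beside ADAR did not pass in KO 2 against WT, with limma adjusted p from 0.0708 for CEBPZOS to 0.762 for CHRNB2. In CRISPR Control AP5S1 fell by 0.42 and CEBPZOS rose by 0.72 (limma, adjusted p 0.000202 and 9.01e-05).

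The pathway around the sensors was described with 8 gene lists, none of which holds a member, and which were written with earlier results of these data known. Genes named with fold changes are up to 3 per list, those with the largest change of deficient against competent lines past the threshold. They were picked from these same data, so their values and p-values are a description and do not stand for their list. Against WT, the shares of all genes tested that were higher and lower were 18.0% and 17.5% in KO 1, 27.1% and 27.9% in KO 2 and 27.2% and 26.3% in CRISPR Control, with medians of 0.0032, -0.0084 and 0.013. Of 20 regulators of the RIG-I-like receptors, 4 (20%) were higher and 2 (10%) lower in KO 1, 9 (45%) higher and 5 (25%) lower in KO 2, and 7 (35%) higher and 3 (15%) lower in CRISPR Control. The KO 1 shares and the lower share in KO 2 were near or under those of all genes, and the median in KO 2 was -0.02. DDX60, a helicase linked to RIG-I and MDA5 signalling, had means of 184 in WT, 186 for CRISPR Control, 657 for KO 1 and 2189 for KO 2, and rose by 1.83 and 3.57 on the log2 scale in the KO lines (limma, adjusted p 4.34e-10 and 1.71e-14). NLRC5, the transactivator of MHC class I genes and a regulator of MAVS signalling, rose by 1.58 and 3.54 in the KO lines and by 0.71 in CRISPR Control (limma, adjusted p 4.84e-07, 2.84e-12 and 0.0014). TRIM14, which joins MAVS at mitochondria, rose by 0.61 and 1.83 (limma, adjusted p 0.000113 and 2.84e-11).

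Of 25 genes of MAVS and TRIF signalling, 7 (28%) were higher and 3 (12%) lower in KO 1, 11 (44%) higher and 5 (20%) lower in KO 2, and 8 (32%) higher and 5 (20%) lower in CRISPR Control, with a median of 0.13 in KO 2. Beside the all-gene shares of 27.1% higher and 27.9% lower in KO 2, more of the list was higher and less of it lower, while the CRISPR Control shares were near the 27.2% and 26.3% of all genes. IRF7, the interferon-inducible factor that drives type I interferon genes, had means of 416 in WT, 370 for CRISPR Control, 1040 for KO 1 and 2049.7 for KO 2 and rose by 1.32 and 2.29 in the KO lines (limma, adjusted p 1.3e-08 and 2.37e-12). TNFAIP3, the NF-kB inhibitor A20, rose by 0.79 and 1.16 (limma, adjusted p 4.55e-06 and 1.21e-08). CASP10 rose by 1.70 in KO 2 (limma, adjusted p 3.17e-05) and fell by 1.21 in CRISPR Control (adjusted p 0.00103).

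Of 19 genes of the PKR branch, 2 (10.5%) were higher and 4 (21.1%) lower in KO 1, 8 (42.1%) higher and 6 (31.6%) lower in KO 2, and 10 (52.6%) higher and 2 (10.5%) lower in CRISPR Control. The lower shares in the KO lines were near the 17.5% and 27.9% of all genes, and the highest share of the list was that higher in CRISPR Control, beside 27.2% of all genes. ATF3, a stress-induced transcription factor downstream of eIF2alpha, had means of 68.9 in WT, 376 for CRISPR Control, 191 for KO 1 and 1481 for KO 2, so CRISPR Control stood above KO 1. EIF2B3 and EIF2B4, subunits of the exchange factor on which phosphorylated eIF2alpha acts, fell in KO 2 by 0.29 and 0.22 (limma, adjusted p 0.00553 and 0.0288). In KO 1 EIF2B3 fell by 0.45 (limma, adjusted p 0.000246), and EIF2B4 did not pass (log2 -0.20, adjusted p 0.0645). Both were higher in CRISPR Control than in WT, by 0.25 and 0.42 (limma, adjusted p 0.0133 and 0.000305). In the list of 21 other proteins that bind, edit or degrade double-stranded RNA, 19 were tested, of which 2 (10.5%) were higher and 11 (57.9%) lower in KO 2, beside 27.1% and 27.9% of all genes, and the median was -0.27. SAMHD1, a nucleotide hydrolase, rose by 1.28 in KO 2 (limma, adjusted p 1.39e-11), while STRBP and DGCR8, which carry double-stranded RNA-binding domains, fell by 0.66 and 0.46 (adjusted p 6.02e-07 and 9.15e-05). In KO 1 that list had 2 (10.5%) higher and 6 (31.6%) lower, beside 18.0% and 17.5% of all genes. In CRISPR Control it had 5 higher and 5 lower (26.3% each), near the 27.2% and 26.3% of all genes.

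Of 9 genes of ZBP1 signalling and necroptosis 8 were tested, and RIPK3, the kinase that ZBP1 and TRIF engage, had 0 reads in all 12 libraries, which allows up to 3 reads in each. MLKL, the executor of necroptosis, rose by 1.21 in KO 2 (limma, adjusted p 1.82e-08), the phosphatase PGAM5 fell by 0.73 (adjusted p 3.51e-08) and TICAM1, which encodes the TLR3 adaptor TRIF, rose by 0.68 (adjusted p 9.57e-06). Of the list's 8 tested genes, 3 were higher and 1 lower in KO 2 (37.5% and 12.5%, beside 27.1% and 27.9% of all genes). For KO 1 the counts were 1 higher and 1 lower (12.5% each, beside 18.0% and 17.5%), and in CRISPR Control 2 were higher and 1 lower (25% and 12.5%, beside 27.2% and 26.3%), so few of these genes passed. The list of 16 genes around the Toll-like receptors does not hold TLR3 itself. Of these genes 10 were tested, with 7 (70%) higher and 1 (10%) lower in KO 2, beside 27.1% and 27.9% of all genes. For KO 1, 4 (40%) were higher and none lower, beside 18.0% and 17.5%, and in CRISPR Control 4 were higher and 4 lower (40% each, beside 27.2% and 26.3%). CD14 rose by 1.18 and 2.13 in the KO lines (limma, adjusted p 3.29e-05 and 7.77e-09) and TLR1 by 1.10 and 2.66 (adjusted p 0.0133 and 1.63e-06). TLR5, a receptor for flagellin, fell by 1.75 in CRISPR Control (limma, adjusted p 0.000212).

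The cytokine genes that the sensors switch on had few reads outside KO 2. Of 16 such genes 6 had enough counts to be tested, and all 6 were higher in KO 2 than in WT, while 4 (66.7%) were higher and 1 (16.7%) lower in KO 1 and none higher and 1 (16.7%) lower in CRISPR Control. Of all genes, 27.1% were higher in KO 2, 18.0% higher and 17.5% lower in KO 1, and 27.2% higher and 26.3% lower in CRISPR Control. Genes such as IFNL1 and IFNL3 reached the minimum through KO 2, so the count of 6 is a description. IFNL1, a type III interferon, had 0 to 2 reads in a WT library, 1 to 6 in CRISPR Control, 6 to 15 in KO 1 and 129 to 183 in KO 2. IFNL3, whose near-identical copies can split its reads, had 0 in WT, 0 to 5 for CRISPR Control, 2 to 5 for KO 1 and 76 to 128 for KO 2. The chemokine CCL5 had 3 to 16, 2 to 4, 20 to 26 and 157 to 242. Among the 10 genes below the minimum, IFNB1, the type I interferon of most tissue cells, had 0 reads over WT and over CRISPR Control, 1 over KO 1 and 41 over KO 2. IFNA2 and IFNK had 0 reads in every library.

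Of 14 genes of interferon receptor signalling, 6 (42.9%) were higher and none lower in KO 1, beside 18.0% and 17.5% of all genes, and 8 (57.1%) higher and 1 (7.14%) lower in KO 2, beside 27.1% and 27.9%. In CRISPR Control 6 (42.9%) were higher and 7 (50%) lower, beside 27.2% and 26.3%. The list's medians were 0.29, 0.70 and -0.07 in that order, beside 0.0032, -0.0084 and 0.013 over all genes. USP18, the deISGylase that dampens the type I interferon receptor, had means of 112 in WT, 238 for CRISPR Control, 359 for KO 1 and 1619 for KO 2. That is the order of lines seen in IFIH1. STAT2 and IRF9, interferon-activated factors that act at the ISRE, rose by 0.61 and 1.20 in KO 1 and by 1.29 and 2.24 in KO 2 (limma, adjusted p from 4.1e-11 for STAT2 in KO 2 to 0.000518 for IRF9 in KO 1). In CRISPR Control they fell by 0.71 and 0.76 (limma, adjusted p 1.62e-07 and 0.00995), although IFIH1 and USP18 were above WT there.

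**Figure D5:**
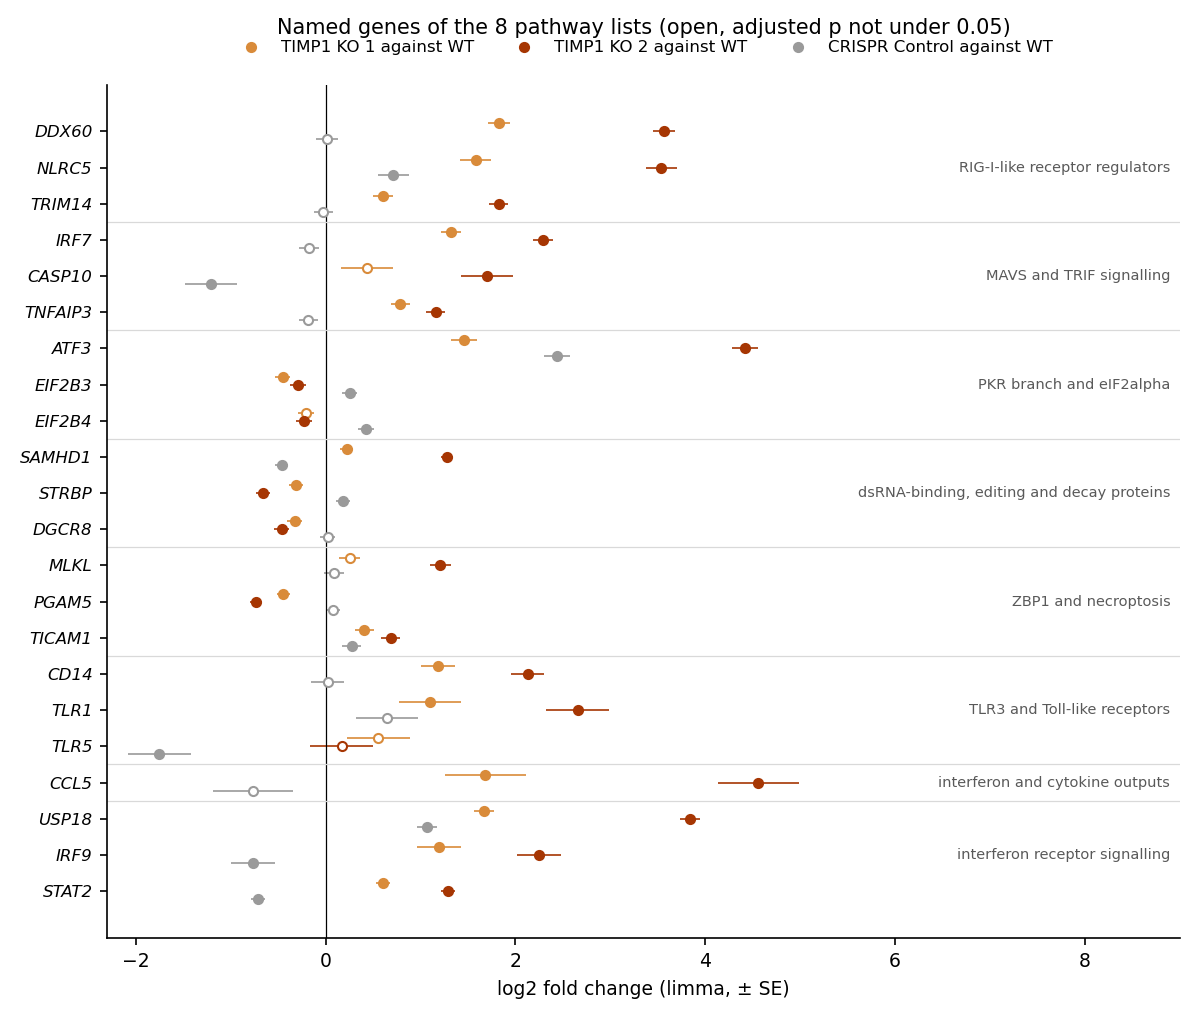
Log2 fold change against WT by limma (points) with its standard error (bars) for the 22 named pathway genes in KO 1, KO 2 and CRISPR Control, grouped by list and filled where the adjusted p is under 0.05. DDX60, NLRC5, ATF3, CCL5 and USP18 lie farthest to the right in KO 2. The genes were picked for their change of deficient against competent lines in these data, so the values are a description. IFNL1 and IFNL3 are left out because their fitted values against WT rest on at most 2 reads in a library.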

How the data were processed

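RNA of 12 libraries was analysed, 3 of each line, with groups and replicate numbers from the sample titles. The authors trimmed reads with Cutadapt, aligned them with STAR against GRCh38, used featureCounts for the counts of each gene and scaled these with DESeq2. The values deposited are thus a signal, read counts scaled per library. Scaling by size factors makes the typical gene equal between libraries. Each library's values were whole multiples of 1 step for 100% of positive values (tolerance 0.01 reads), which gave back whole reads, the depth and a floor of 3 reads. In the table, 1 blank line and 4 columns of line means were not used.

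The main test was limma 3.58.1 in R 4.3.3 (trend, all 12 libraries, 4 line means) on log2(normalised count + 1) of the 15987 genes with a mean of at least 10, two-sided, with Benjamini-Hochberg adjustment and a threshold of 0.05. Fold changes are on that scale and understate the change of low genes. Ratios between members were compared by exact permutation over libraries (scipy 1.17.1). Alternatives used edgeR 4.0.16, DESeq2 1.42.0, other scalings, filters and added counts, a replicate block, and each library left out. The fit was tested on simulated data. The titles call replicates biological without naming separate cultures, so p-values measure the spread between these libraries.

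The members and the lists were chosen with earlier results of these data known. Named genes were the members, TIMP1, per list up to 3 genes with the largest change of deficient against competent lines past the threshold, per member the 3 genes with the highest Pearson correlation and the nearest tested protein-coding gene on either side. CD45 and the other marker genes, and the genes below the minimum, were added for the checks they bear on. Coordinates are of GENCODE v44 (GRCh38), which matched 99.1% of gene identifiers and need not be the authors' release.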

Additional observations from a re-analysis of the deposited data

Results flagged for a closer look

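For 6 of the 7 tested sensors the change from WT differed between the knockout clones, by the limma test of KO 2 against KO 1 over all genes. In that test 18.1% of all genes were higher in KO 2 and 20.1% lower. TLR3 reached the minimum count through KO 2, so its part in the count is a description. The change in KO 2 exceeded that in KO 1 by a log2 difference of 2.46 for IFIH1, 3.08 for TLR3, 1.55 for DHX58, 1.36 for DDX58, 1.02 for EIF2AK2 and 0.55 for ADAR, with adjusted p from 1.1e-12 for IFIH1 to 0.00484 for DDX58. All 3 libraries of KO 2 lay above all 3 of KO 1 for each of these genes, a separation for which the share of all genes is not given here. TIMP1 transcript was lower in KO 2 than in KO 1 (log2 difference -0.46, limma, adjusted p 0.000398). TIMP1 protein was not measured here, and the paper describes both clones as knockouts with frame-shift mutations, so transcript level does not grade the loss. Clone and TIMP1 transcript level cannot be told apart with 1 clone at each level.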

How the results depend on the processing

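Over 49 results, a member in a comparison, 994 of 1057 values under an alternative kept their direction and their side of the threshold, 48 lost the call, 3 gained it and 12 turned direction. All that turned were values that had not passed. Many alternatives could not turn a direction. A replicate block, a changed minimum, a fit of only the lines compared, or a left-out library of a line not compared, returns the same fold change. Requiring a larger fold change could only remove calls. The tally is therefore not a measure of stability. DDX58 in CRISPR Control against WT became -0.0019 with an added 10, -0.016 with equal library totals, -0.036 by edgeR with TMM and -0.013 by DESeq2, and ran from -0.22 to 0.24 with 1 library left out. TLR3 in KO 1 against CRISPR Control became 0.080 under quantile normalization and ran from -0.35 to 0.34 without 1 library. MAVS in KO 2 against KO 1 became 0.083 with equal library totals and 0.067 under quantile normalization. The cause of these changes was not tested. Equal library totals moved the median of all genes by 0.11 in KO 2 against CRISPR Control, and the share of calls that were higher from 49.3% to 59.9% in KO 2 against WT and from 47.4% to 65.5% in KO 2 against KO 1, but none of the members passing there changed direction.

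Requiring an absolute log2 fold change of 1 left 3 members in KO 1 against WT, 1 in KO 1 against CRISPR Control and 4 in deficient against competent lines. In KO 1 against CRISPR Control 3 members passed with no minimum count and also when only the lines compared were fitted. With 1 library left out the counts ran from 3 to 5 in KO 1 against WT (3 without KO 1 replicate 2) and from 3 to 5 in KO 1 against CRISPR Control (3 without CRISPR Control replicate 2, KO 1 replicate 1 or KO 1 replicate 2). They ran from 6 to 7 in KO 2 against WT and from 3 to 4 in CRISPR Control against WT. The share of all genes passing under each of these settings is not given here, so the counts show only which member calls changed. The 6 library ratios kept their direction without any 1 library: IFIH1/ADAR from 1.91 to 2.32 with adjusted p from 0.013 to 0.026, DDX58/IFIH1 from -1.66 to -1.18 (0.013 to 0.0649), DHX58/DDX58 from 0.64 to 0.95 (0.0173 to 0.0779), EIF2AK2/ADAR from 0.37 to 0.51 (0.026 to 0.0779), DDX58/MAVS from 0.66 to 1.05 (0.0325 to 0.166) and DHX58/IFIH1, which passed in none, from -0.79 to -0.42 (0.104 to 0.312), by exact permutation tests. DDX58/MAVS passed without KO 1 replicate 1. With 11 libraries the smallest p is larger, so losses there say little about stability.

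Libraries with the same replicate number did not deviate together: correlations ran from -0.129 to 0.16 with a median of -0.0103, and 2 of 18 pairs were above 0.1. With a replicate block 5 members passed in KO 1 against WT, 6 in KO 2 against WT, 3 in CRISPR Control against WT, 5 in KO 1 against CRISPR Control, 7 in KO 2 against CRISPR Control and 6 between the KO lines. The call that the block changed among these was MAVS in KO 2 against WT (limma, adjusted p 0.055). The share of all genes passing with the block is likewise not given. Depth limits ZBP1, TLR3 in WT and DDX58 most.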
